A study of Mus musculus with 1 sample.

Results

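The 10 genes described here were *Fos*, *Fosb*, *Jun*, *Junb*, *Egr1*, *Egr3*, *Atf3*, *Klf4*, *Ier2* and *Nr4a1*. They are 10 of the 32285 genes in the count matrix and were selected by symbol. They were chosen from measured values, because several of them had led a small cluster of adrenaline-producing chromaffin cells in an earlier clustering of these same cells, so their levels in that cluster are given without support for anything else. The adrenaline chromaffin-like class described below is taken to contain most of those cells.

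Immediate-early genes are switched on within minutes of a stimulus without new protein synthesis, and most of their transcripts are short-lived. Many of them code for transcription factors: FOS and JUN proteins pair to form AP-1, EGR proteins are zinc-finger activators that bind GC-rich DNA, NR4A proteins are orphan nuclear receptors, and ATF3 is a stress-responsive bZIP factor that can pair with JUN proteins. In the adrenal gland they are known as targets of splanchnic input and depolarisation in chromaffin cells and of adrenocorticotropic hormone and angiotensin II in cortical cells, and they also respond to tissue dissociation.

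The cells came from 1 droplet-based single-cell library of wild type mouse adrenal medulla at postnatal day 15, made from 10 adrenals of 5 mice of mixed sex and pooled before loading. Fat and excess cortex had been trimmed by hand and the medullae digested with collagenase II, trypsin and DNase at 37 °C for 15 min. The paper states that an aliquot of 10000 viable cells was used. No undigested or otherwise treated library was analysed here, so transcripts present in the gland and transcripts made during dissection and digestion cannot be told apart. The matrix held 11214 cell barcodes and 51421499 unique molecular identifiers (UMIs, each counting 1 captured transcript 3′ end), and 10139 barcodes had 500 to 5000 genes and at most 20% mitochondrial UMIs (median 3567 UMIs). Both barcode counts exceed the stated 10000 viable cells, and the reason was not tested. Clustering without the 10 genes and without 64 other immediate-early, heat shock and integrated stress genes among its features gave 9 classes of at least 50 cells, 9400 cells in all. They were 1663 adrenaline, 393 noradrenaline and 131 cycling chromaffin-like, 419 transitioning-like (cells with both chromaffin and sustentacular markers), 178 sustentacular-like, 3722 cortex-like, 2150 endothelial-like, 656 macrophage-like and 88 fibroblast-like cells. In each class at least 3 of the markers of its own type were detected in the share of its cells that naming required, and of the remaining cells 43 were lymphocyte-like and 696 were unnamed or carried markers of several types. With 1 library there is no replicate and no test: levels are UMIs per 1000000 UMIs of the class (CPM) with exact Poisson 95% intervals, ratios carry exact binomial 95% intervals, shares carry exact Clopper-Pearson 95% intervals, and all of these cover counting error only.

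All 10 genes were present in the matrix. In GRCm38 (mm10) with GENCODE M21 annotation, all were protein-coding and their identifiers matched the matrix. *Jun* (chr4:95049034-95052222, minus strand) and *Klf4* (chr4:55527143-55532466, minus strand) share chromosome 4, *Junb* (chr8:84974484-84978718) and *Ier2* (chr8:84661331-84662852) lie on the minus strand of chromosome 8, and *Fos* (chr12:85473890-85477273, plus strand), *Fosb* (chr7:19302696-19310051, minus strand), *Egr3* (chr14:70077203-70082614, plus strand), *Atf3* (chr1:191170296-191218039, minus strand) and *Nr4a1* (chr15:101254269-101274795, plus strand) each lie on a chromosome with no other of these genes.

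The 250 bases upstream of the RefSeq start were read for motifs of the inputs known to induce these genes. Of the 10 genes, 7 had an entry in the promoter table of GRCm38.p6. Both strands were searched for the CArG box, which serum response factor binds. The cAMP response element was searched as TGACGTCA. Its core, which overlaps it, was searched as TGACG. The AP-1 site was TGANTCA in this search. For EGR proteins the letters were GCGNGGGCG, and for the TATA box they were TATAAA. The cAMP response element core was found in 6 of 7 windows (*Fos*, *Fosb*, *Junb*, *Atf3*, *Klf4* and *Nr4a1*), against 17.8% of 32851 promoter windows of the same length. The EGR letters were in 3 (*Fosb*, *Klf4* and *Nr4a1*), against 4.70%. The TATA box letters stood in the *Fos* window alone of these 7 (12.4% of all windows). The CArG box, the whole cAMP response element and the AP-1 site were in none of the 7 (1.47%, 1.55% and 6.75% of all windows). These matches are letters in a window and not measured binding. The 7 windows held from 58.4% (*Fos*) to 74.4% (*Nr4a1*) G and C, and the background windows were not matched for this. *Nr4a1* held the core 4 times, although its window, like that of *Atf3*, lies inside the longer GENCODE gene. The windows of the FOS and JUN genes are shown 5′ to 3′ on the coding strand because AP-1 genes are described first and because they contrast windows with the core and one without it. Capitals mark the core in either orientation and the TATA box letters. They are chr12:85473640-85473889 (plus strand), chr7:19310046-19310295 (minus), chr8:84978749-84978998 (minus) and chr4:95052223-95052472 (minus), and the *Jun* window held none of the letters searched. It does hold TGACATCA, a near match to the whole cAMP response element that a search for exact letters misses. Sites with other letters or beyond these 250 bases were not searched for, so absence here is not absence of a site.
Fos: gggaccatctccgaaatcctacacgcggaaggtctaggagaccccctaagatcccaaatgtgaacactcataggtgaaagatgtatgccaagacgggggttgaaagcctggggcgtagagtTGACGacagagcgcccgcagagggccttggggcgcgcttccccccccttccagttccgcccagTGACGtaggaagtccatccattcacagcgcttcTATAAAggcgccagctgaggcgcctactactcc
Fosb: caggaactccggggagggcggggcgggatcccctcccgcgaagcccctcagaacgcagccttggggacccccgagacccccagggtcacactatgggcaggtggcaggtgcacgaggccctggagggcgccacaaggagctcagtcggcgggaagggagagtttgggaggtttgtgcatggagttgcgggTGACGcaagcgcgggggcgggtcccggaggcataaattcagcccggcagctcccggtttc
Junb: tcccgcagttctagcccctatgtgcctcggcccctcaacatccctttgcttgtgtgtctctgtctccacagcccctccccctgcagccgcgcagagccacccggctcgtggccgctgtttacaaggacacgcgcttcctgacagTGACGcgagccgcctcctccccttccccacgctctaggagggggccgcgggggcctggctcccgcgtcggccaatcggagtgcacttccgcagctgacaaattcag
Jun: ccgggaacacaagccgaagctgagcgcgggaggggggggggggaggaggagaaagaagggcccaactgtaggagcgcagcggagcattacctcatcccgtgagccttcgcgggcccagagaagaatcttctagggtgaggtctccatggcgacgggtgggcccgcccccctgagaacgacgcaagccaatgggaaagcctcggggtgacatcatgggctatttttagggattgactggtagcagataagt

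Together the 10 genes supplied 0.284% of all UMIs in the passing cells. Their summed level was highest in sustentacular-like cells, at 5749 CPM (5442 to 6069), and in macrophage-like cells, at 5416 CPM (5296 to 5537), whose intervals overlapped. This order did not hold within the sex calls described at the end: sustentacular-like cells stood at 3324 CPM in cells with *Xist* (23 cells), below 5 other classes of at least 20 such cells, and at 5298 CPM in cells with a Y-linked UMI (26 cells), below macrophage-like and fibroblast-like cells. Fibroblast-like cells followed at 4582 CPM, a place not kept in the mean over cells of CPM given at the end. Transitioning-like cells at 4231 CPM and noradrenaline chromaffin-like cells at 4168 CPM came next and overlapped each other. Adrenaline chromaffin-like cells (3894 CPM, 3848 to 3939) and endothelial-like cells (3863 CPM, 3812 to 3914) could not be separated either. Cycling chromaffin-like cells held 3446 CPM, and cortex-like cells were lowest at 1912 CPM (1895 to 1930). The 43 lymphocyte-like cells, too few to describe gene by gene, had 1495 CPM (1201 to 1840).

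**Figure D1:**
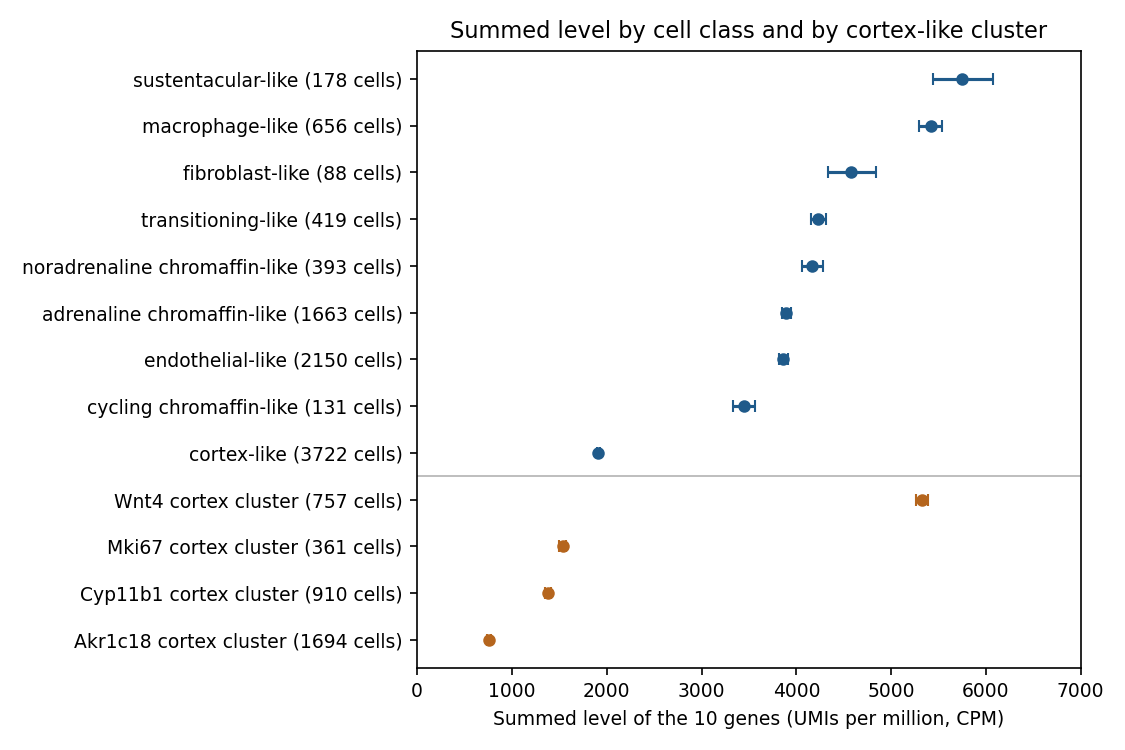
Summed level of the 10 genes (horizontal axis, CPM) in the 9 classes (blue) and in the 4 clusters of cortex-like cells (brown); points are pooled levels and bars exact Poisson 95% intervals, with cell numbers in parentheses. The classes run from 1912 to 5749 CPM and the cortex-like clusters from 758 to 5325 CPM.

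Transcripts of other cell types were measured beside these levels. *Chga*, the chromaffin granule protein chromogranin A, stood at 23595 CPM in adrenaline chromaffin-like cells and at 0.232% of that in cortex-like, 0.236% in endothelial-like, 1.97% in sustentacular-like and 4.84% in macrophage-like cells. The same percentage of the adrenaline chromaffin-like summed level is 9.04 CPM for cortex-like and 189 CPM for macrophage-like cells. With *Pnmt*, the adrenaline-forming enzyme, in its place macrophage-like cells held 7.29%, the equivalent of 284 CPM. *Star*, which carries cholesterol into mitochondria of steroid-making cells, was in cycling chromaffin-like cells at 9.11% of its cortex-like level, the equivalent of 174 CPM, and in 36.6% of these cells. Called doublets made up 11.3% of macrophage-like and 13.7% of cycling chromaffin-like cells and at most 4.55% of any other class, and with doublets left out the summed level was 5581 CPM in macrophage-like and 3253 CPM in cycling chromaffin-like cells. Median mitochondrial shares ranged from 2.47% in macrophage-like to 7.09% in cortex-like cells, and median UMIs from 1146 in sustentacular-like to 5771 in cycling chromaffin-like cells. Fibroblast-like cells also carried 5011 CPM of the 10 endothelial markers, 2 of which were in at least 50% of them, and macrophage-like cells 965 CPM, against 8491 CPM in endothelial-like cells. In fibroblast-like cells the 7 fibroblast markers summed to 3209 CPM, less than the endothelial markers. The 9 cortex markers summed to 2234 CPM there and the 7 mural markers to 1605 CPM. The part of these in the levels was not tested.

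*Fos*, the partner that JUN proteins need for the most stable AP-1 dimer, was highest in macrophage-like cells at 1869 CPM (1799 to 1941). It stood at 1484 CPM in sustentacular-like, 1372 in noradrenaline chromaffin-like, 1274 in transitioning-like, 1102 in adrenaline chromaffin-like, 1023 in cycling chromaffin-like and 1019 in fibroblast-like cells. Endothelial-like (562 CPM) and cortex-like cells (490 CPM) were the lowest, and macrophage-like cells exceeded cortex-like cells 3.81-fold (3.66 to 3.98). After each cell was thinned to 1000 UMIs, 69.2% of macrophage-like, 51.1% of adrenaline chromaffin-like, 33.1% of endothelial-like and 23.0% of cortex-like cells still held a *Fos* UMI; before thinning the shares were 81.7%, 76.1%, 48.4% and 44.3%. *Fosb*, a close FOS relative, had a flatter profile. Its levels ran from 338 CPM in sustentacular-like and 318 CPM in noradrenaline chromaffin-like cells, through 251, 244, 243 and 236 CPM in cycling chromaffin-like, macrophage-like, transitioning-like and fibroblast-like cells, to 166 CPM in adrenaline chromaffin-like, 151 CPM in cortex-like and 137 CPM in endothelial-like cells.

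*Jun*, the transactivating AP-1 partner, followed another order. Endothelial-like (1903 CPM, 1868 to 1940) and sustentacular-like cells (1893 CPM, 1718 to 2080) were highest and overlapped, fibroblast-like (1487 CPM) and macrophage-like cells (1484 CPM) came next, and noradrenaline chromaffin-like (1013 CPM) and transitioning-like cells (1005 CPM) were intermediate. Cycling (685 CPM) and adrenaline chromaffin-like cells (653 CPM) were low, and cortex-like cells lowest at 590 CPM. In endothelial-like cells *Jun* alone supplied 49.3% of the UMIs of the 10 genes, against 16.8% in adrenaline chromaffin-like cells, where *Fos* (28.3%) and *Egr1* (26.8%) supplied more. *Junb*, which forms AP-1 dimers of weaker transactivation on many targets, was nearly level: 6 classes lay between 369 and 393 CPM with overlapping intervals, endothelial-like (316 CPM) and cycling chromaffin-like cells (308 CPM) were slightly lower, and cortex-like cells had 179 CPM.

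*Egr1*, a zinc-finger factor that can bind the *Pnmt* promoter, was highest in adrenaline chromaffin-like cells at 1045 CPM (1022 to 1069), with sustentacular-like cells at 1045 CPM (917 to 1187). Fibroblast-like, cycling chromaffin-like and transitioning-like cells lay at 826, 795 and 774 CPM, macrophage-like and endothelial-like cells at 565 and 558 CPM, noradrenaline chromaffin-like cells at 495 CPM and cortex-like cells at 225 CPM. A UMI of *Egr1* was kept in 55.4% of thinned adrenaline chromaffin-like cells, in 26.5% of noradrenaline chromaffin-like cells and in 14.9% of cortex-like cells. *Egr3*, its relative, was scarce everywhere. It reached 30.7 CPM in sustentacular-like cells (7 UMIs), 26.5 CPM in macrophage-like, 16.2 CPM in adrenaline chromaffin-like and 13.2 CPM in transitioning-like cells, was at 8.29, 7.56 and 6.48 CPM in noradrenaline chromaffin-like, cycling chromaffin-like and endothelial-like cells, and stood at 0.774 CPM in cortex-like cells (19 UMIs). No *Egr3* UMI was counted in fibroblast-like cells, where 3 counts would be 10.7 CPM. The adrenaline level of *Egr3* was uneven. The 124 cells of the cluster taken here as the one on which the genes were chosen held 74 UMIs (165 CPM). The other 1545 adrenaline chromaffin-like cells held 45 (6.51 CPM). These values follow from that choice and are not ranked against the classes.

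*Atf3* had the widest well-measured span among the AP-1 related genes, from 364 CPM (334 to 397) in macrophage-like to 41.5 CPM (39.0 to 44.1) in cortex-like cells, an 8.77-fold ratio (7.88 to 9.76). Between them lay fibroblast-like (157 CPM), noradrenaline chromaffin-like (147 CPM), sustentacular-like (132 CPM), transitioning-like (99.5 CPM), cycling chromaffin-like (68.1 CPM), adrenaline chromaffin-like (61.8 CPM) and endothelial-like cells (51.3 CPM). Few cells carried the adrenaline level. The 124 cells of the cluster taken here as the one on which the genes were chosen held 394 *Atf3* UMIs. The other 1545 adrenaline chromaffin-like cells stood at 10.4 CPM. That split came from a clustering with the listed genes allowed among its features, so this remainder is not ranked against the classes. The cortex-like level was uneven too, with 801 of its 1019 UMIs in the *Wnt4* cluster described below. *Klf4*, a Krüppel-like factor known from vascular and myeloid cells, was highest in fibroblast-like (139 CPM), macrophage-like (95.4 CPM), endothelial-like (82.0 CPM) and sustentacular-like cells (79.1 CPM), whose neighbouring intervals overlapped. It was at 32.3 CPM in transitioning-like, 28.4 CPM in cortex-like, 22.9 CPM in adrenaline, 16.2 CPM in cycling and 9.80 CPM in noradrenaline chromaffin-like cells, the last from 13 UMIs. Of the adrenaline *Klf4* UMIs, the same 124 cells held 81 and the other 1545 cells 87 (12.6 CPM). The cortex-like *Klf4* level was uneven as well, at 77.7 CPM in the *Wnt4* cluster and 13.4 CPM in the *Akr1c18* cluster described below.

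*Ier2*, a nuclear immediate early response protein, was highest in adrenaline (415 CPM) and noradrenaline chromaffin-like cells (412 CPM), which overlapped. Its level ran through transitioning-like (396 CPM), macrophage-like (360 CPM), sustentacular-like (316 CPM), cycling chromaffin-like (270 CPM), fibroblast-like (268 CPM) and endothelial-like cells (233 CPM) to 162 CPM in cortex-like cells. *Nr4a1*, the nuclear receptor NUR77, placed cortex-like cells near the top. At 44.9 CPM (42.3 to 47.6) they lay between fibroblast-like (57.2 CPM, 16 UMIs) and sustentacular-like cells (43.9 CPM, 10 UMIs). That level pools the clusters described below, and the *Akr1c18* cluster alone lay below adrenaline chromaffin-like cells. Macrophage-like, adrenaline chromaffin-like, transitioning-like and cycling chromaffin-like cells had 32.0, 28.0, 24.5 and 22.7 CPM, and endothelial-like and noradrenaline chromaffin-like cells 13.3 and 9.80 CPM.

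**Figure D2:**
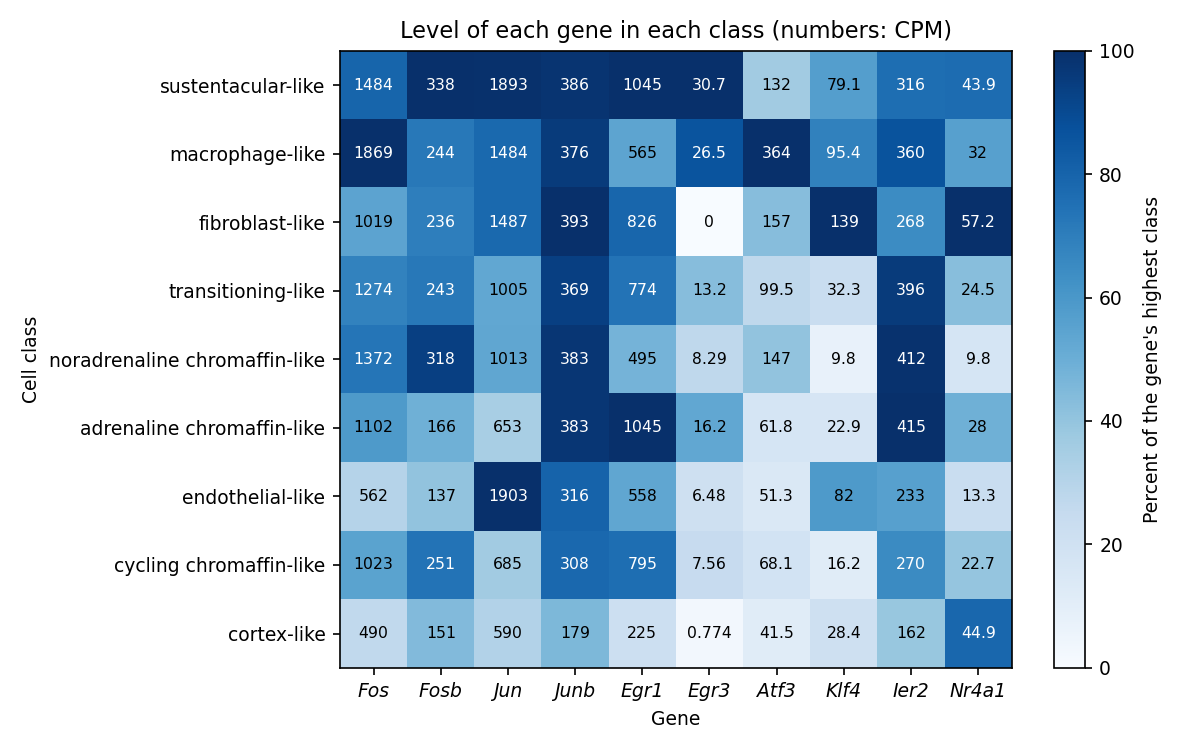
Level of each of the 10 genes (columns) in each class (rows, in order of the summed level); the numbers are CPM and the shade is the percent of that gene's highest class. *Jun* peaks in endothelial-like and sustentacular-like cells, *Fos* and *Atf3* in macrophage-like cells and *Egr1* in adrenaline chromaffin-like and sustentacular-like cells.

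Pairs of classes were then compared gene by gene, a gene being counted where its level differed at least 2-fold with a pseudocount of 10 CPM among genes with at least 100 UMIs in the pair. Between adrenaline and noradrenaline chromaffin-like cells, 1 of the 10 genes was higher in adrenaline cells (background over all genes 2.55%) and 1 lower (2.65%). The adrenaline class holds most of the cluster on which the genes were chosen, so nothing is read from these counts against their background. *Egr1* was 2.11-fold higher (1.95 to 2.29) and *Atf3* was at 0.421 of the noradrenaline level (0.355 to 0.500), an adrenaline level carried mostly by the 124 cells named above. *Junb* and *Ier2* had ratios of 0.999 (0.909 to 1.10) and 1.01 (0.920 to 1.11), and *Fosb* and *Jun* ratios of 0.522 and 0.645. Of 21 other immediate-early genes with enough UMIs none was higher and 2 were lower in adrenaline cells, *Ier3* (12.3 against 57.3 CPM) and *Gadd45g*. Of 15 heat shock genes 2 were lower, *Hspb1* (10.9 against 294 CPM) and *Cryab*.

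Against cortex-like cells, the 2056 adrenaline and noradrenaline chromaffin-like cells together had 5 of the 10 genes higher (background 12.8%) and none lower (11.6%): *Egr1* 4.27-fold (4.12 to 4.42), *Ier2* 2.56-fold, *Fos* 2.33-fold, *Junb* 2.13-fold and *Egr3* 19.4-fold (11.9 to 33.3). *Egr3* passed the UMI minimum through chromaffin-like cells (130 UMIs against 19). Of its UMIs, 74 were in the 124 cells named above and 45 in the other 1545 adrenaline chromaffin-like cells (165 and 6.51 CPM). Its fold thus rests largely on the cluster on which the genes were chosen. Of these 2056 cells 1663 were adrenaline chromaffin-like, the class on one of whose clusters the genes were chosen, so nothing is read from the count against its background. *Klf4* and *Nr4a1* had ratios of 0.736 and 0.561. The cortex-like levels pool the clusters described below, and the direction of these ratios did not hold in each of them. *Klf4* was lower in the *Akr1c18* (13.4 CPM) and *Cyp11b1* clusters (13.1 CPM) than in chromaffin-like cells (20.9 CPM). It was higher in the *Wnt4* cluster (77.7 CPM). *Nr4a1* was lower in the *Akr1c18* cluster than in chromaffin-like cells (25.2 CPM). It was higher in the *Cyp11b1* (57.6 CPM) and *Wnt4* clusters (95.8 CPM). In the *Wnt4* cluster *Fos* (1573 CPM) and *Junb* (487 CPM) were above the chromaffin-like levels (1143 and 383 CPM), while *Egr1*, *Ier2* and *Egr3* were not. Of the other immediate-early genes 4 of 32 were higher (*Plk2*, *Btg2*, *Btg1* and *Arc*) and 10 lower, among them *Zfp36l1*, *Gadd45b* and *Fosl2*.

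Endothelial-like cells against cortex-like cells had 3 of 9 genes with enough UMIs higher (background 12.8%), *Jun* 3.23-fold (3.15 to 3.31), *Klf4* 2.88-fold and *Egr1* 2.48-fold, and 1 lower (11.1%), *Nr4a1*, at 0.296 of the cortex-like level (0.232 to 0.374). *Nr4a1* passed the UMI minimum through cortex-like cells (76 UMIs in endothelial-like against 1103 in cortex-like cells). In the *Wnt4* cortex-like cluster described below, *Egr1* (642 CPM) was above its endothelial-like level (558 CPM), while *Jun* and *Klf4* were not above theirs. Of 34 other immediate-early genes 16 were higher and 5 lower, the former led by *Plk2* (150 against 8.39 CPM) and the flow-responsive factor *Klf2* (594 against 59.8 CPM). Macrophage-like cells against endothelial-like cells had 2 of 9 higher (background 7.48%), *Atf3* 7.10-fold (6.14 to 8.21) and *Fos* 3.32-fold (3.16 to 3.50), and none lower (14%), while *Egr1* had a ratio of 1.01 (0.936 to 1.09). Sustentacular-like cells against the same chromaffin-like cells had 2 of 10 higher (7.21%), *Klf4* 3.78-fold (2.19 to 6.15) and *Jun* 2.67-fold (2.42 to 2.95), and none lower (17.9%). They also had 4 of 15 heat shock genes higher, *Cryab*, *Hspb1*, *Hspa1a* and *Hspa1b*. Haemoglobin transcripts stood at 8446 against 1993 CPM and *Malat1* at 67338 against 41000 CPM in this comparison, and the 7 fibroblast markers summed to 2240 CPM in sustentacular-like cells, with *Lum* and *Tcf21* at 0. Their part was not tested. In cycling against the other chromaffin-like cells none of the 10 was higher (2.61%) or lower (0.0975%), and *Ier2* had the lowest ratio of the well-counted genes, 0.651 (0.571 to 0.741). The 9 cortex markers summed to 2398 CPM in the cycling cells, and their part in this ratio was not tested. The comparisons with chromaffin-like cells both included most of the cluster on which the genes were chosen. Nothing is read from their counts against the background.

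The cortex-like class was not uniform. It consisted of 4 clusters, named here by leading genes since no subtype markers had been set. The first was led by *Pik3c2g*, *Akr1c18* and *Apoc1* (1694 cells; *Akr1c18* codes for a progesterone-inactivating enzyme known from the innermost X-zone). The second was led by *Cyp11b1* (910 cells), the glucocorticoid-producing 11β-hydroxylase. The third was led by *Ecrg4*, *Ly6d* and *Fabp4* and had the highest *Wnt4* (757 cells), a signal known from the outermost cortex, and the last by cell cycle genes such as *Top2a* and *Mki67* (361 cells). The summed level of the 10 genes was 758 CPM (741 to 775) in the *Akr1c18* cluster, 1382 CPM (1352 to 1412) in the *Cyp11b1* cluster, 1534 CPM (1493 to 1575) in the *Mki67* cluster and 5325 CPM (5260 to 5390) in the *Wnt4* cluster. The *Wnt4* cluster was thus 7.02-fold (6.85 to 7.20) above the *Akr1c18* cluster, a wider ratio than the 3.01-fold (2.84 to 3.18) between the highest and the lowest of the 9 classes. The ratio was 4.14 at a clustering resolution of 0.2 and 4.11 with a stricter cell filter, where the *Wnt4* and *Cyp11b1* clusters merged. This contrast was chosen after its values were seen.

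All 9 of the genes with enough UMIs were at least 2-fold higher in the *Wnt4* than in the *Akr1c18* cluster (background 9.13%), and none was lower (5.64%). *Atf3* had the largest ratio, 166 against 3.75 CPM or 44.3-fold (32.1 to 62.8). It passed the UMI minimum through the *Wnt4* cluster (801 UMIs against 39). *Fos* stood at 1573 against 121 CPM (13.0-fold, 12.3 to 13.8), *Fosb* at 442 against 51.4 CPM, *Junb* at 487 against 66.1 CPM and *Egr1* at 642 against 89.5 CPM (7.17-fold, 6.66 to 7.72). *Klf4*, *Jun*, *Nr4a1* and *Ier2* were 5.81-fold, 5.02-fold, 4.78-fold and 3.68-fold higher. *Egr3* had 16 UMIs in the *Wnt4* cluster and none in the *Akr1c18* cluster, where 3 counts would be 0.289 CPM. The *Cyp11b1* cluster against the *Akr1c18* cluster had 4 of 9 genes higher (3.59%), *Fos*, *Junb*, *Atf3* and *Nr4a1*, and none lower (2.76%), with *Nr4a1* 2.88-fold higher (2.41 to 3.44) and *Klf4* at 13.1 against 13.4 CPM. In this pair *Atf3* passed the UMI minimum through the *Cyp11b1* cluster (132 UMIs against 39).

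**Figure D3:**
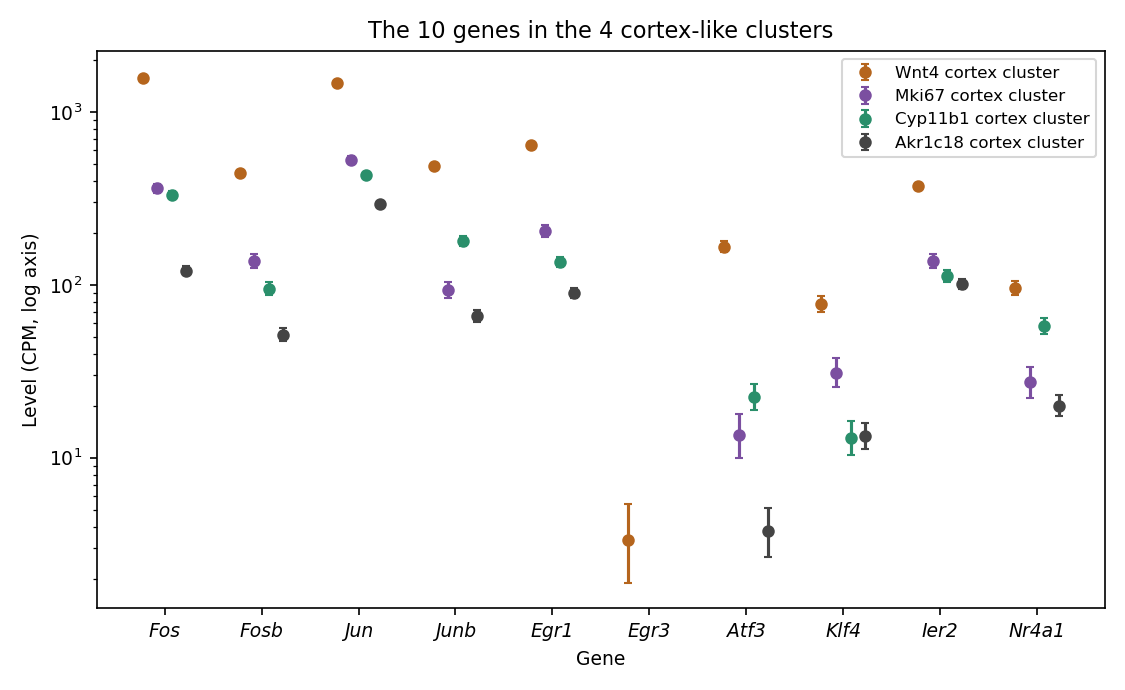
Level of each of the 10 genes (vertical log axis, CPM) in the 4 clusters of cortex-like cells; points are pooled levels, bars exact Poisson 95% intervals, and clusters with 3 or fewer UMIs of a gene are not drawn. The *Wnt4* cluster is the highest for every gene drawn, and the gap to the *Akr1c18* cluster is widest for *Atf3*.

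Other immediate-early genes moved in the same direction, 19 of 31 being higher in the *Wnt4* cluster and 3 lower (*Cebpb*, *Nfkbia* and *Fosl2*). The largest folds were those of *Btg2* (333 against 14.1 CPM), *Klf2* (203 against 13.9 CPM) and *Klf6* (134 against 11.9 CPM), followed by the NR4A genes *Nr4a3* and *Nr4a2*. Of 14 heat shock genes 5 were higher, led by *Hspb1* (153 against 5.58 CPM), while none of 5 integrated stress genes and 1 of 11 upstream kinases and factors (*Elk3*) was. The median log2 fold was 2.71 over the 9 genes, 1.56 over the other immediate-early genes, 0.45 over heat shock genes and 0.08 over all genes.

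Endothelial transcripts moved with this contrast. The 10 endothelial markers summed to 1180 CPM in the *Wnt4* cluster, 27.7 CPM in the *Akr1c18* cluster and 8491 CPM in endothelial-like cells, none of the 10 was in 50% of the cells of the *Wnt4* cluster, and *Fabp4*, *Gpihbp1* and *Kdr* were among its leading genes within cortex-like cells. In the 438 *Wnt4*-cluster cells without a UMI of any of these markers the summed level was 5721 CPM (5621 to 5823), and the ratio to the 1497 such cells of the *Akr1c18* cluster was 7.48. Their median UMIs were 3748 and 4681. There *Fos* was 14.1-fold (13.1 to 15.1) and *Atf3* 54.5-fold (38.3 to 80.2) higher. *Egr3* had only 2 UMIs in these 438 cells (0.918 CPM), against 16 UMIs (3.32 CPM) in the whole *Wnt4* cluster. Genes of the other lists were not measured in these cells. Of those higher in the *Wnt4* cluster, *Klf2*, *Hspb1* and *Elk3* were also at least 2-fold higher in endothelial-like than in cortex-like cells. *Dnajb1* and *Dnajb4* were not. The part of endothelial transcripts in the folds of the other lists was not tested. Called doublets were 5.02% of the *Wnt4* cluster and 0.590% of the *Akr1c18* cluster, and without doublets the ratio was 6.75. Median mitochondrial shares were 7.07% and 6.38% and median UMIs 5148 and 4785.

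Between clusters made without the listed genes, the summed level of the other large classes varied less. The 3 endothelial-like clusters had summed levels of 4138, 3536 and 3473 CPM, and the pair of adrenaline chromaffin-like clusters 3809 and 3933 CPM, with *Egr1* at 807 and 1156 CPM and *Fos* at 1110 and 1098 CPM.

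Within a class the genes were unevenly shared among cells. In adrenaline chromaffin-like cells this is in part built in, since the genes were chosen for leading a small cluster that lies mostly in this class. In thinned adrenaline chromaffin-like cells the median cell held UMIs of 2 of the 10 genes, 14.5% held none and 9.63% held 5 or more. The 10% of cells with the most UMIs of these genes supplied 40.5% of them, and the variance of the summed UMIs was 6.18 times the mean, where independent counting alone gives a value near 1 in cells of equal level. The same 10% supplied 30.9% in endothelial-like cells (variance over mean 3.33) and 53.3% in cortex-like cells (5.94). The cortex-like values pool clusters of unlike level. They were 31.2% (4.87) within the *Wnt4* cluster, 52.3% (4.07) within the *Cyp11b1* cluster and 54.5% (3.09) within the *Akr1c18* cluster. Both measures depend on the mean of the summed UMIs, which was 5.42, 1.37 and 0.81 per thinned cell in these clusters. They order the clusters oppositely and do not rank them by unevenness. Of the *Wnt4*-cluster cells 22.5% held 5 or more genes and 12.1% none, against 1.01% and 59.4% of the *Akr1c18*-cluster cells. Macrophage-like cells left the fewest without any, 5.85%.

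**Figure D4:**
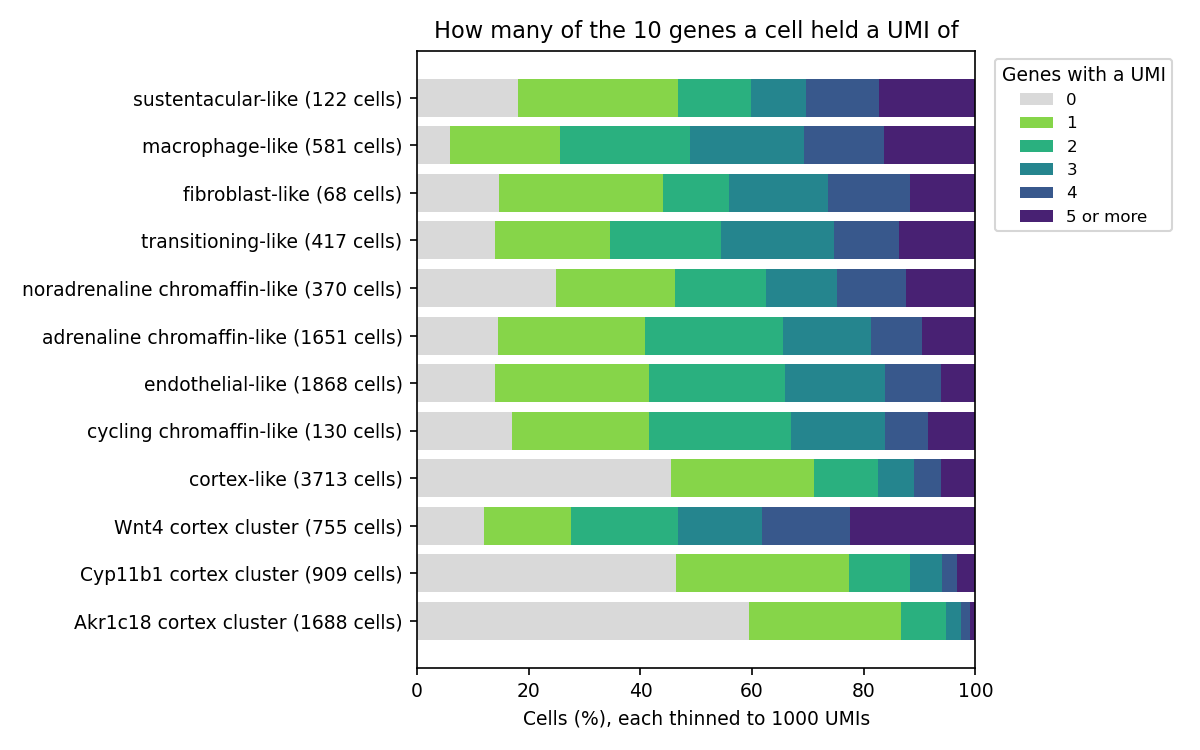
Share of cells (horizontal axis, %) by the number of the 10 genes with at least 1 UMI after thinning every cell to 1000 UMIs, for the 9 classes and 3 cortex-like clusters; cell numbers are in parentheses. Cells without any of the genes make up 59.4% of the *Akr1c18* cluster and 5.85% of macrophage-like cells.

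Detection of the genes together was described by correlation. In adrenaline chromaffin-like cells positive values are in part built in, since the genes were chosen for leading a cluster together. Of the 124 cells of the cluster taken as that one, 121 lie in this class. Over the 1651 thinned adrenaline chromaffin-like cells all 45 pairs had a positive Pearson correlation of log(1 + UMIs), from 0.05 (*Egr1* and *Nr4a1*) to 0.47 (*Fosb* and *Jun*), with a median of 0.22. The median was 0.21 in noradrenaline chromaffin-like, 0.15 in cortex-like, 0.13 in macrophage-like and 0.07 in endothelial-like cells, and *Fos* with *Jun* was the closest pair in noradrenaline chromaffin-like (0.62), cortex-like (0.50) and transitioning-like cells (0.37). The cortex-like values pool clusters of unlike level. Within the *Wnt4*, *Cyp11b1* and *Akr1c18* clusters the median was 0.15, 0.12 and 0.05, and *Fos* with *Jun* reached 0.34 in the *Akr1c18* cluster. *Fos* paired most closely with *Egr1* in endothelial-like (0.29), sustentacular-like (0.65) and *Wnt4*-cluster cells (0.41), and with *Atf3* in macrophage-like (0.40) and fibroblast-like cells (0.44). Cells of 1 library share its handling, and scarce genes such as *Egr3*, *Klf4* and *Nr4a1* give low correlations from sparse counts. The summed thinned level correlated with a cell's own depth at 0.06 in adrenaline chromaffin-like, 0.01 in cortex-like and 0.11 in endothelial-like cells, and with the mitochondrial share at −0.17, −0.15 and −0.01. Its correlation with the mitochondrial share was −0.32 in the *Wnt4* cluster, −0.20 in the *Akr1c18* cluster and −0.19 in the *Cyp11b1* cluster.

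**Figure D5:**
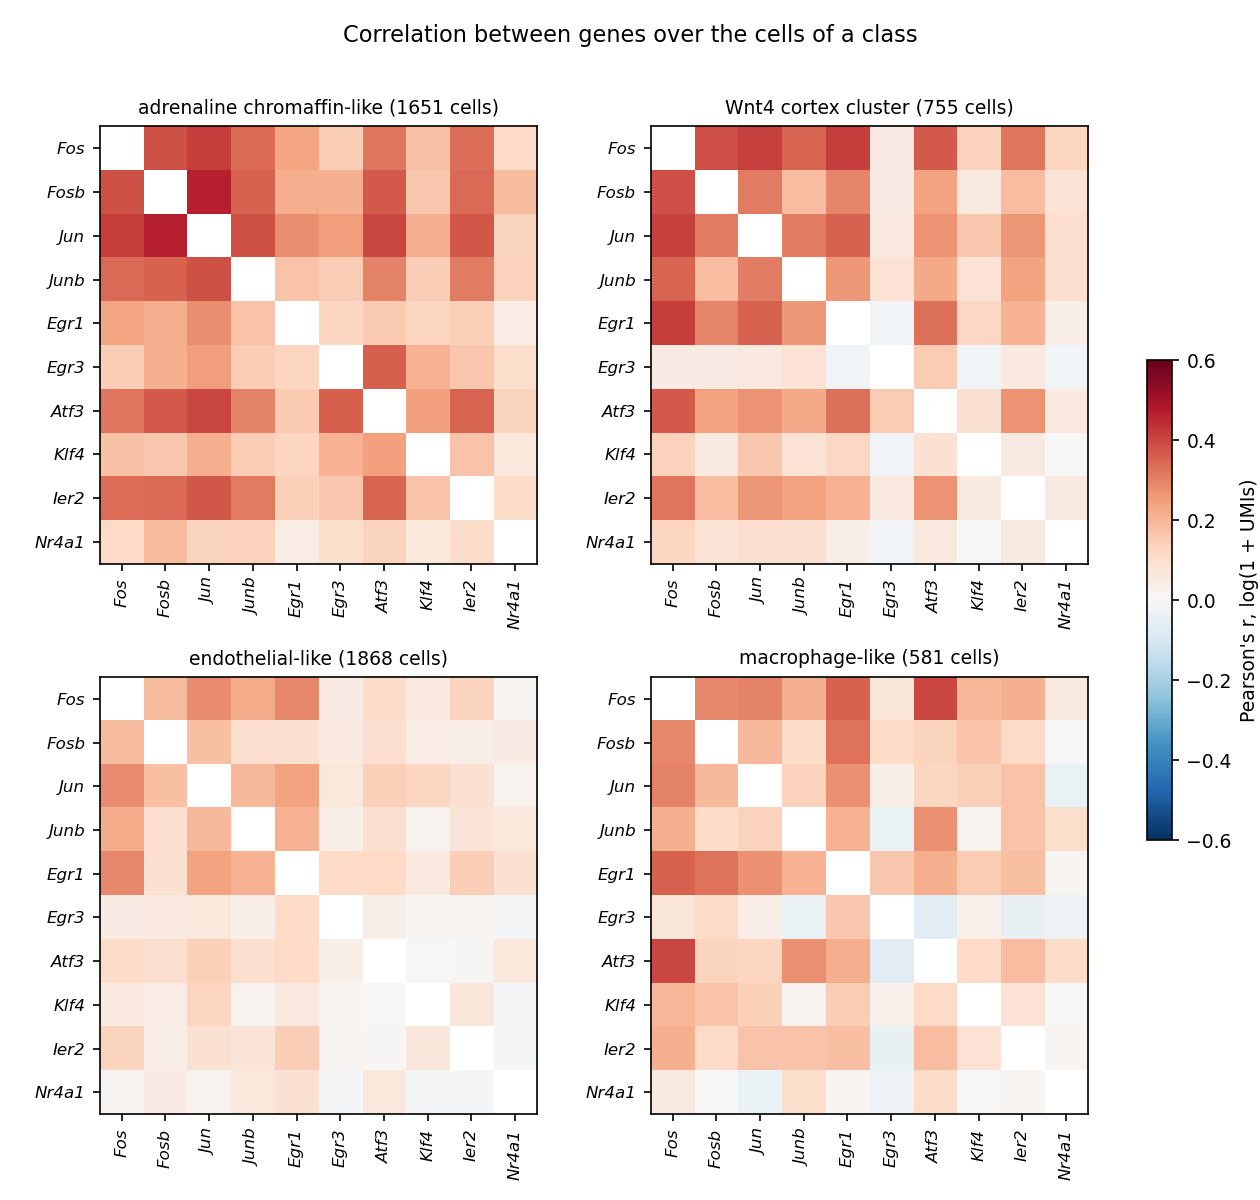
Pearson's r between each pair of the 10 genes (rows and columns) over thinned cells of 4 groups, with log(1 + UMIs) as the value; red is positive, blue negative and the diagonal is blank. In adrenaline chromaffin-like cells, on a cluster of which the genes were chosen, r runs from 0.05 to 0.47, and in endothelial-like cells it reaches 0.29 at most.

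The genes outside the 10 that followed their summed level most closely differed by class. In adrenaline chromaffin-like cells they were *Jund* (r = 0.35), *Dusp1* (0.35), *Btg2* (0.32) and *Btg1* (0.21), all immediate-early genes, followed by *Hsp90aa1*, *Pde10a*, *Actg1*, *Mat2a* and *Ddx5* at 0.14 to 0.18 among 1340 genes. In endothelial-like cells *Jund* (0.37), *Dusp1* (0.24), the protease *Adamts1* (0.24) and *Btg2* (0.20) led, with *Hspa1a*, *Hspa1b*, *Hspb1*, *Slc38a2*, *Plk2* and *Malat1* behind them. In cortex-like cells the first was *Ly6d* (0.43), a leading gene of the *Wnt4* cluster, then *Dusp1* (0.39), *Timp3* (0.34), *Rhob* (0.33), *Igfbp7* (0.33), *Dab2* (0.30), *Zfp36l1*, *Cpe*, *Ifitm3* and *Tmem176b*, and the most negative was *Abcb1b* (−0.39). The cortex-like values pool clusters of unlike summed level, and *Dab2* was also a leading gene of the *Wnt4* cluster against all other cells. Genes that differ between these clusters can therefore rank high, and correlations of these genes within the clusters were not measured. *Dusp1*, the phosphatase that switches off MAP kinases, was the 1 gene among the first 10 in all 3 classes, with the cortex-like class pooled.

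A cluster of 124 adrenaline chromaffin-like cells with high levels of the 10 genes formed when the listed genes were allowed among the clustering features. It is taken here as the cluster on which the genes were chosen, without a match of its cells to the earlier clustering. The summed level there was 16336 CPM, against 3123 CPM in the other 1545 adrenaline chromaffin-like cells, with *Atf3* at 881 against 10.4 CPM, *Fos* at 4385 against 901 CPM and *Egr1* at 2205 against 974 CPM. These values follow from how the cluster was made and carry no test. Of 17 other immediate-early genes 13 were at least 2-fold higher there and none lower, and of 13 heat shock genes 3 were higher, with *Dnajb1* at 472 against 43.3 CPM and *Hspa1a* at 212 against 45.4 CPM. Over all genes 0.816% were higher. These listed genes were also allowed among the features that made the cluster, so the counts are in part built in. The cells with *Xist* and with a Y-linked UMI numbered 12 and 49 in the cluster and 270 and 626 outside it. Median UMIs were 2779 and 3212, median mitochondrial shares 5.43% and 6.24%, called doublets 0% and 0.0647%, *Chga* 22758 and 23607 CPM and *Pnmt* 11897 and 11658 CPM. When the listed genes were left out of the features the cluster dissolved: 79 of its cells (63.7%) joined the larger adrenaline chromaffin-like cluster of 940 cells, 42 (33.9%) the cluster of 723 cells, and 1 each fell into the cycling, noradrenaline and transitioning classes.

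Cells could be split by sex where they held a UMI of *Xist* or of 4 Y-linked genes. Of the passing cells 1954 had *Xist* and no Y-linked UMI and 3996 had a Y-linked UMI and no *Xist*. The summed level was higher in cells with a Y-linked UMI in 8 of the 9 classes, such as 4007 against 3183 CPM in adrenaline chromaffin-like, 2084 against 1614 CPM in cortex-like and 4183 against 4027 CPM in endothelial-like cells. Noradrenaline chromaffin-like cells had the opposite order, 3790 against 4497 CPM. In the *Wnt4* cluster the values were 6222 and 3474 CPM and in the *Akr1c18* cluster 828 and 556 CPM, so that the order of these clusters held in both. Cells with a Y-linked UMI were also deeper in 8 of the 9 classes (median 4435 against 3097 UMIs in adrenaline chromaffin-like cells). The number of mice of each sex is not given in the sources used here, and in a single pool sex and individual mouse cannot be told apart.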

How the data were processed

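Single cells of adrenal medulla from P15 mice formed 1 library (10x Genomics 3′ v3.1). The authors deposited raw UMI counts per gene and barcode, made with Cell Ranger 4.0.0 on mm10 per the submitters' processing notes. Cells with 500 to 5000 genes and at most 20% mitochondrial UMIs were kept. Following the study's settings, Seurat 5.3.0 (R 4.3.3) clustered them with log-normalisation, 2000 variable features, 10 principal components and a resolution of 0.4, and medullary clusters were clustered again. The 10 genes and 64 listed immediate-early, heat shock and integrated stress genes were taken out of the features. A cluster was named where at least 3 markers of a type were detected in 50% of its cells (25% for sustentacular, cycling and lymphocyte markers), and chromaffin clusters were called adrenaline where *Pnmt* was in at least 50%. Scrublet (scanpy 1.11.5; expected rate 8%) called 677 doublets (6.68%), which were kept in the main values. Levels are pooled UMIs per 1000000. For shares and correlations each cell was thinned to 1000 UMIs and shallower cells were left out (12 adrenaline chromaffin-like, 9 cortex-like, 282 endothelial-like, 56 sustentacular-like). The fold rule was tested only on simulated counts, with large set changes in well-expressed genes and counting error alone. That test covers neither scarce genes nor variation between cells or animals. Library depth was 51421499 UMIs, 500 to 33809 per barcode, and intervals and floors cover counting error only.

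All 10 genes were named in every class; of the other lists, genes past 2-fold were counted and up to 8 per list named; and the 10 genes outside the 10 with the highest correlation with the summed UMIs were named among genes in at least 10% of cells of a class. In adrenaline chromaffin-like cells 1 of these is not reported here. Alternatives changed the features, resolution, components, cell filter, doublets, pseudocount, minimum UMIs, thinning, averaging and the sex of the cells (20 cells at least). The genes, lists and pairs were chosen with earlier results of these data known.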

Additional observations from a re-analysis of the deposited data

How the results depend on the processing

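The order of the classes at the bottom (cortex-like lowest) held under every clustering, filter and averaging alternative and in cells of either sex call. Values outside the counting interval of the reported summed level (CPM) were as follows. In cells with *Xist* and no Y-linked UMI they were 3183 (adrenaline), 4497 (noradrenaline), 4075 (transitioning), 3324 (sustentacular), 1614 (cortex), 4027 (endothelial), 4990 (macrophage) and 3662 (fibroblast), and the 19 cycling cells, under the 20 required for this comparison, had 3174. In cells with a Y-linked UMI and no *Xist* they were 4007 (adrenaline), 3790 (noradrenaline), 3651 (cycling), 5298 (sustentacular), 2084 (cortex), 4183 (endothelial), 5661 (macrophage) and 5627 (fibroblast). The mean over cells of CPM gave 3954 (adrenaline), 4311 (noradrenaline), 3275 (cycling), 1941 (cortex), 3693 (endothelial), 5842 (macrophage) and 3425 (fibroblast), below the pooled level in fibroblast-like cells. Resolution 0.8 gave 3187 (cycling), 1661 (cortex) and 6081 (macrophage); a cell filter of 1000 genes or more with 10% mitochondrial UMIs or less gave 3258 (cycling), 4331 (transitioning), 2127 (cortex), 3960 (endothelial) and 4670 (macrophage). Leaving out called doublets gave 3253 (cycling), 1869 (cortex) and 5581 (macrophage), keeping the listed genes among the features 4139 (transitioning) and 5617 (macrophage), and 30 principal components 3921 (endothelial) and 4327 (fibroblast). The cause of these shifts was not tested.

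The ratio of the *Wnt4* to the *Akr1c18* cortex-like cluster (alternatives chosen after seeing the data) was 4.14 at resolution 0.2 and 4.11 under the stricter filter, where the *Wnt4* and *Cyp11b1* clusters merged, 7.85 at resolution 0.8, 6.75 without doublets, 6.24 and 7.51 in cells with *Xist* and with a Y-linked UMI, and 7.48 without cells holding endothelial markers. With a pseudocount of 1 CPM 3 of the 10 genes were 2-fold higher in adrenaline than in noradrenaline chromaffin-like cells instead of 1. After the same merging at resolution 0.2 and under the stricter filter, 9 of 9 rather than 4 genes were higher in the *Cyp11b1* than in the *Akr1c18* cluster. Resolution 0.2 left no cycling chromaffin-like or fibroblast-like class, and the stricter filter no sustentacular-like or fibroblast-like class, so these gave no value. Levels of single genes moved by over 1.5 times in 3 of 496 values, all of *Klf4* from 39 or fewer UMIs, under the clustering, cell filter and doublet settings. Within the sex calls 23 of 178 values did, 7 of them of *Atf3* and 8 in sustentacular-like cells, such as *Fos* at 789 against 1484 CPM in sustentacular-like and *Atf3* at 21.2 against 41.5 CPM in cortex-like cells with *Xist*. Requiring 2 UMIs in place of 1 can only lower a share of cells. It did so for each of the 10 genes in adrenaline chromaffin-like, cortex-like and endothelial-like cells, and nothing is read from this. The median pair correlation at 2000 UMIs was above that at 1000 UMIs in each of the 7 classes with enough cells. No paired analysis was possible because there is 1 library. Genes under about 20 CPM in classes of fewer than 500 cells rest on under 40 UMIs.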
